A study of Mus musculus with 21 samples.

Results

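Pdcd10, also called CCM3, was targeted in mice by a Cre driven in brain endothelium and choroid plexus epithelium. The mice were then kept at low or at ordinary oxygen. The comparison here asked which of the gene expression differences between knockouts and controls depended on oxygen. For each gene the interaction was the knockout minus control difference in hypoxia less the knockout minus control difference in normoxia, on the log2 scale. All libraries with a count column entered it, 19 of the 21 labelled samples. They were 7 knockout and 4 control libraries in hypoxia, and 4 knockout and 4 control libraries in normoxia. A positive interaction means that the gene stood higher against its controls in hypoxic than in normoxic knockouts, and a negative interaction the opposite.

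Knockout mice carried floxed Pdcd10 on both alleles (Pdcd10fl/fl), the astrocyte transgene Aldh1l1-EGFP/Rpl10a and Slco1c1-iCreERT2, a tamoxifen-inducible Cre recombinase under the promoter of Slco1c1. Control mice, called Flox in the labels, had the same floxed alleles and the same transgene and no Cre allele in their listed genotype. The design text gives 50 µg of 4-hydroxytamoxifen on postnatal day 1 for the knockouts and no dose for the controls, so genotype and injection cannot be told apart. It also counts Cre-carrying mice without an injection among the controls, and which libraries came from them is not stated. Hypoxic mice spent 7 days at 12% oxygen, normoxic mice were kept at 21%, and brains were taken on postnatal day 57. The Aldh1l1 transgene tags ribosomes of astrocytes, and the design text describes pull-down of such ribosomes, whereas the extraction text of the samples describes homogenised brain. The Cre is driven in brain endothelium and in the epithelium of the choroid plexus, whereas the tagged ribosomes are those of astrocytes.

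PDCD10 forms, with KRIT1 and CCM2, the cerebral cavernous malformation complex, which in endothelium holds back signalling through the kinase MEKK3 and the transcription factors KLF2 and KLF4. Its loss gives leaky, blood-filled venous lesions, and astrocytes next to such lesions take on a reactive state with more GFAP and vimentin. Low oxygen stabilises HIF transcription factors, which raise glycolysis and angiogenic factors. Astrocytes also make most of the cholesterol of the adult brain, under control of the factor SREBP2, and clear glutamate and potassium around synapses.

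Libraries held between 45399320 and 65261791 counts. Astrocyte markers were abundant in each, with a median over 10 markers of 898 to 1503 CPM (the CPM unit of edgeR, counts relative to the library size with TMM scaling) in hypoxic knockouts, 1474 to 1645 CPM in hypoxic controls, 1333 to 1661 CPM in normoxic knockouts and 1500 to 1703 CPM in normoxic controls. Hypoxic knockouts 1, 2 and 3 stood apart from hypoxic knockouts 4 to 7 in mitochondrially encoded transcripts and had lower astrocyte markers, with medians of 898 to 975.02 CPM against 1234 to 1503 CPM. Hypoxic control 6 stood apart from the other 3 hypoxic controls in immediate early and glucocorticoid-responsive genes, with 303.9 CPM of Fos against 23.97 to 37.9 CPM; in hypoxic knockouts Fos was at 45.9 to 58.6 CPM in replicates 1 to 3 and at 167 to 284 CPM in replicates 4 to 7. Transcripts of 4 Y-linked genes were absent or near background in 5 libraries, although every sample carries the tag male: summed, they came to 0.016 and 0 CPM in hypoxic knockouts 6 and 7, 0 in hypoxic control 6, and 4.83 and 0.946 CPM in normoxic controls 3 and 4, against 84.1 to 132 CPM in the others. Results were therefore also computed without hypoxic knockouts 1 to 3, without each library in turn, and with the Y-linked or immediate early level as a covariate.

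**Figure D1:**
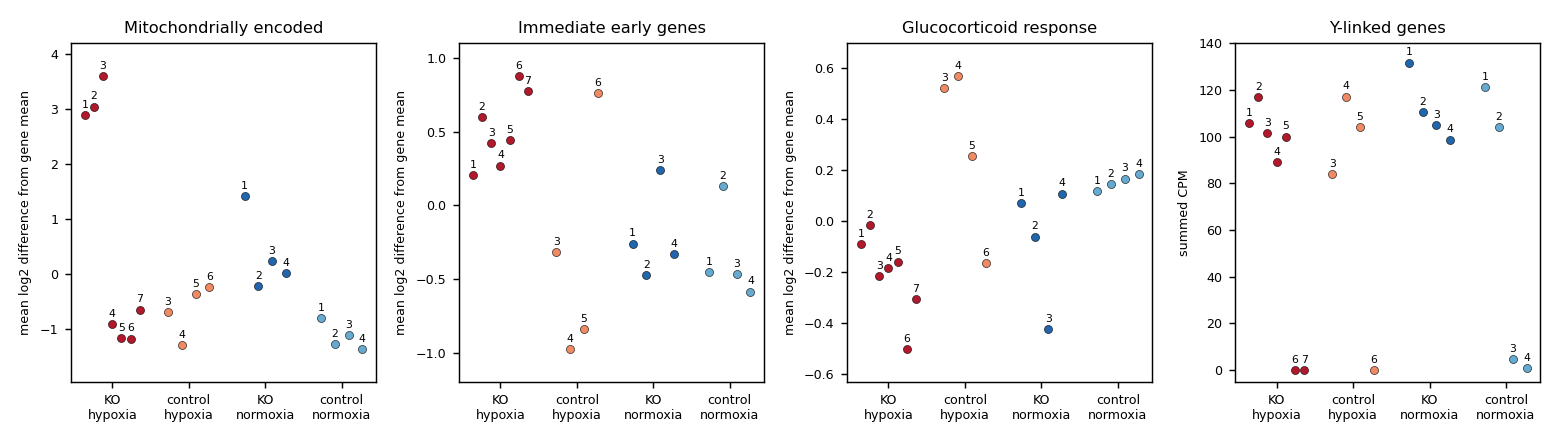
Level of 4 gene lists in each library, with hypoxic knockouts, hypoxic controls, normoxic knockouts and normoxic controls from left to right and replicate numbers beside the points. In 3 panels the axis is the mean log2 difference of a list's genes from their mean over the libraries, and in the last it is the summed CPM of Y-linked genes; hypoxic knockouts 1, 2 and 3 sit at 2.89 to 3.59 for mitochondrially encoded genes, above all other libraries.

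Promoter sequences from RefSeq (build GRCm38.p6, 250 bases before to 50 after the annotated start) are shown for 2 genes on which the results below turn, Slco1c1 and Mfsd2a. Capitals mark the letters ACGTG, the core of the element that HIF factors recognise, searched on both strands. The Slco1c1 window lies at chr6:141524104-141524403 on the plus strand, and its matches on the 2 strands overlap as CACGTG and begin 19 and 20 bases after the start. The Mfsd2a window lies at chr4:122961139-122961438 on the minus strand, with matches beginning 107 and 9 bases before the start. Among all 32851 promoters in the table, 6447 (19.6%) hold the core, so a match is a description of these letters and no evidence of binding.
Slco1c1: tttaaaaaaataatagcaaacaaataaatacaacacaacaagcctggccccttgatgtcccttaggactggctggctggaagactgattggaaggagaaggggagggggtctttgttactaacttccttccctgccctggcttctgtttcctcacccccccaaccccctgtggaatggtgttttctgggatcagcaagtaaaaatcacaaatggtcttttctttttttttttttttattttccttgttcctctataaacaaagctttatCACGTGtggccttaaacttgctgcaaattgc
Mfsd2a: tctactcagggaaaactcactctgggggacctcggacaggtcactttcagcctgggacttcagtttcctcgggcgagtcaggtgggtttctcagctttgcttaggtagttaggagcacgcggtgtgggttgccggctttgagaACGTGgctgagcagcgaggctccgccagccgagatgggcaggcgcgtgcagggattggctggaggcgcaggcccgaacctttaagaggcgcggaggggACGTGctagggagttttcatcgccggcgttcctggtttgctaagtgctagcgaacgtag

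The interaction passed the test at 2 of the 19854 genes tested, Slco1c1 and Pde3a, which is 0.0101% of them (edgeR quasi-likelihood, Benjamini-Hochberg adjusted p under 0.05). Both interactions were positive. With the replicate number as a block, 9 genes passed. At an unadjusted p under 0.05 there were 2292 genes (11.5%), of which 1033 (5.2%) were positive and 1259 (6.34%) negative. By comparison, the knockout difference passed at 3917 genes in hypoxia (19.7%) and at 2415 genes in normoxia (12.2%). The oxygen difference passed at 2489 genes in knockouts (12.5%; 946 or 4.76% higher and 1543 or 7.77% lower in hypoxia) and at 17 genes in controls (0.0856%; 1 or 0.00504% higher and 16 or 0.0806% lower), in groups of 11 and 8 libraries. The hypoxic count was 2143 without hypoxic control 5 and 1696 without hypoxic knockouts 1 to 3. It was 597 with the immediate early level as a covariate. The normoxic count was 1122 without normoxic knockout 3. The immediate early level was itself higher in hypoxic knockouts (0.202 to 0.877) than in hypoxic controls 3 to 5 (-0.975 to -0.318), with control 6 at 0.759. Counts and losses of calls under these alternatives, given below, stand against these lower counts over all genes. The oxygen count in knockouts was 1480 without normoxic knockout 1, and in controls it was 3 without hypoxic control 3 and 39 without hypoxic control 6.

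Slco1c1 encodes the transporter that carries thyroxine into brain, is expressed in brain endothelium and astrocytes, and lends its promoter to the Cre transgene of the knockouts. It measured 256 CPM at the lowest, 457 at the median and 491 at the highest in the 7 hypoxic knockouts, and 94.1, 103, 127 and 105 CPM in hypoxic controls. Normoxic knockouts held 476, 194, 426 and 456 CPM, and normoxic controls 838, 654, 608 and 690.0 CPM. Hypoxic controls were thus lower than every other library, and normoxic controls higher than every other library.

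The knockout difference of Slco1c1 was 1.98 ± 0.20 (log2, SE) in hypoxia, a 3.95-fold higher level in knockouts (adjusted p = 1.91e-05, edgeR), and -0.85 ± 0.23 in normoxia (adjusted p = 0.023). Both passed the test and their signs were opposite. The interaction was 2.83 ± 0.30 (95% interval 2.20 to 3.46, adjusted p = 0.000652), a 7.11-fold ratio between the knockout ratios. In controls, hypoxic libraries averaged 15.4% of the normoxic level of Slco1c1 (log2 difference -2.70, adjusted p = 2.34e-05, edgeR). In knockouts the oxygen difference of 0.13 did not pass (adjusted p = 0.727, edgeR). Because the libraries from Cre-carrying controls are not named, oxygen and that genotype cannot be told apart here. The normoxic knockout difference lost its call without normoxic control 1 (adjusted p = 0.0691).

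Pde3a, a phosphodiesterase that breaks down cyclic AMP and is held back by cyclic GMP, lies next to Slco1c1 on chromosome 6 in the RefSeq gene order of GRCm38.p6. It held 19.4 CPM at the lowest, 25.3 at the median and 56.5 at the highest in hypoxic knockouts, and 2.30, 2.23, 2.35 and 1.27 CPM in hypoxic controls. In normoxia it held 29.1, 9.45, 26.2 and 20.04 CPM in knockouts, and 48.3, 32.8, 30.0 and 33.3 CPM in controls. The 4 hypoxic controls lay far below all other libraries, and the lowest of the rest was normoxic knockout 2.

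The knockout difference of Pde3a was 3.94 ± 0.36 in hypoxia, a 15.4-fold higher level in knockouts (adjusted p = 9.54e-06), and -0.77 ± 0.37 in normoxia, which did not pass (adjusted p = 0.182). The interaction was 4.71 ± 0.51 (95% interval 3.64 to 5.79, adjusted p = 0.000652), a 26.2-fold ratio between the knockout ratios. Hypoxic controls averaged 5.65% of normoxic controls (log2 difference -4.15, adjusted p = 1.33e-04). Both Slco1c1 and Pde3a were called under each of 28 alternative settings, with interactions of 2.61 to 2.94 and of 4.14 to 4.98. Among all genes tested, 72 (0.363%) had every hypoxic control below every other library, and both belong to these.

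The tested genes near this pair gave much smaller values. Aebp2, a cofactor of the Polycomb repressive complex on the other side of Pde3a, had an interaction of 0.33 ± 0.09 (adjusted p = 0.277) and was chosen here for its position. It held 59.9, 63.3 and 65.2 CPM (lowest, median, highest) in hypoxic knockouts and 49.6, 51.7, 52.0 and 55.5 CPM in hypoxic controls, so these groups did not overlap. Normoxic knockouts held 56.8, 48.2, 58.1 and 49.5 CPM and normoxic controls 56.1, 58.1, 55.7 and 51.2 CPM, which overlapped. Next along, Plekha5 had an interaction of -0.09 ± 0.24. Slco1a4, a transporter of endothelium on the far side of Slco1c1, had -0.10 ± 0.49, and neither passed. Slco1b2 and Gm5724, which lie between Slco1c1 and Slco1a4, were not tested.

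**Figure D2:**
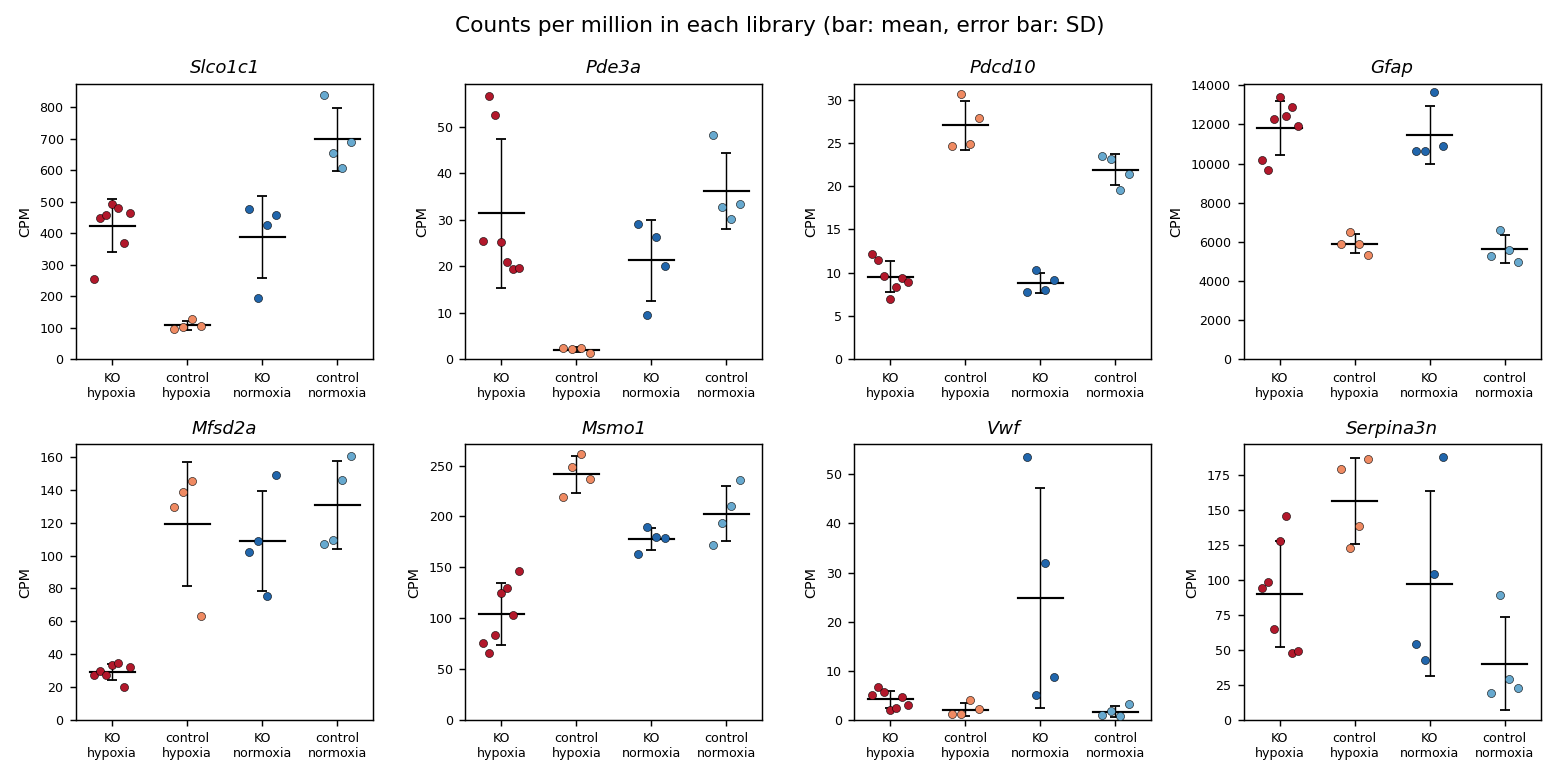
CPM of 8 genes in each library, with hypoxic knockouts, hypoxic controls, normoxic knockouts and normoxic controls from left to right, each point a library and each bar the group mean with its SD. Slco1c1 and Pde3a are lowest in the 4 hypoxic controls, Pdcd10 and Gfap separate knockouts from controls alike at both oxygen levels, and Mfsd2a and Msmo1 are lowest in hypoxic knockouts.

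The targeted gene served as a check of the labels at both oxygen levels. Pdcd10 held 6.98, 9.35 and 12.2 CPM (lowest, median, highest) in hypoxic knockouts and 24.6, 30.7, 24.95 and 27.9 CPM in hypoxic controls. Normoxic knockouts held 7.74, 10.3, 8.04 and 9.15 CPM and normoxic controls 23.5, 23.2, 19.6 and 21.4 CPM. Every knockout library was below every control library. The knockout difference was -1.50 ± 0.13 in hypoxia (adjusted p = 1.02e-06) and -1.32 ± 0.14 in normoxia (adjusted p = 4.08e-05), and the interaction of -0.19 had a 95% interval of -0.58 to 0.21, within 1.5-fold either way. In a tissue sample, fewer cells of a type and less RNA per cell cannot be told apart. Over all libraries, endothelial markers summed to 11.7 to 55.1 CPM and astrocyte markers to 27672.9 to 47297.4 CPM. In which cells Pdcd10 RNA was lost was not tested. The 2 partners in the complex, Krit1 and Ccm2, had interactions of 0.11 and 0.14 and passed in neither knockout comparison.

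Most knockout differences that passed the test at both oxygen levels had the same sign. The 2 knockout comparisons share no library, and 1214 genes (6.11%) were called in the same direction in both, against 5 (0.0252%) called in opposite directions. Over the 13980 genes whose log2 CPM averaged 1 or more, the knockout differences correlated at r = 0.705 (Spearman's rho 0.597) across genes, which are not independent replicates. A gene was taken as not dependent on oxygen where it was called in the same direction in both and the 95% interval of its interaction lay within 1.5-fold either way. That held for 507 genes (2.55%), 197 (0.992%) higher and 310 (1.56%) lower in knockouts. The choice of these genes uses both knockout differences and the interval, so their values are a description.

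**Figure D3:**
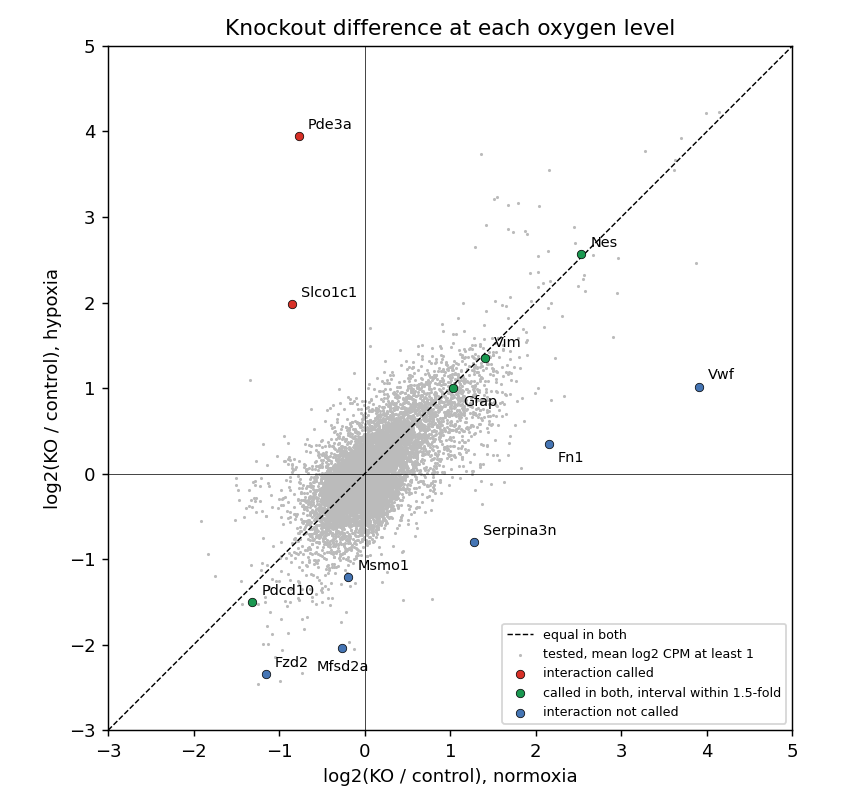
Knockout minus control log2 difference in normoxia (x axis) and in hypoxia (y axis) for the 13979 genes inside the axes whose log2 CPM averaged 1 or more, with a dashed line where both are equal. Slco1c1 and Pde3a lie far above the line, Nes, Vim, Gfap and Pdcd10 on it, and Mfsd2a, Vwf, Serpina3n, Fn1, Fzd2 and Msmo1 below it.

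Among the 10 largest rises that did not depend on oxygen were 3 intermediate filament genes of astrocytes, Nes, Vim and Gfap. Nes, which encodes nestin, a filament protein of neural progenitors and reactive astrocytes, held 17.4, 22.1 and 26.4 CPM (lowest, median, highest) in hypoxic knockouts and 4.21, 3.44, 4.93 and 2.69 CPM in hypoxic controls. It held 21.6, 16.2, 23.2 and 18.7 CPM in normoxic knockouts and 2.57, 4.77, 3.07 and 3.39 CPM in normoxic controls. The knockout and control ranges were far apart at both oxygen levels, and the knockout differences were 2.57 ± 0.17 and 2.53 ± 0.19, with an interaction of 0.03 (95% interval -0.51 to 0.58).

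Gfap, the main filament of mature astrocytes, measured 9681, 12267 and 13380.0 CPM (lowest, median, highest) in hypoxic knockouts and 5902, 6494, 5874 and 5332 CPM in hypoxic controls. Normoxic knockouts had 10628, 10625, 13651 and 10904 CPM, and normoxic controls 5274, 6624, 5587 and 4962 CPM. Knockouts stood above controls without overlap in each, with knockout differences of 1.00 ± 0.11 and 1.03 ± 0.12 and an interaction of -0.03 (95% interval -0.37 to 0.32). Vim, which encodes vimentin, gave 1.36 ± 0.13 in hypoxia and 1.41 ± 0.14 in normoxia, and an interaction of -0.05 (95% interval -0.45 to 0.34).

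The other rises named by the same rule were Hist1h4h (a histone H4 gene whose close copies may share reads; 1.52 in hypoxia, 1.35 in normoxia), Capg (an actin-capping protein; 1.21 and 1.13), Ggta1 (a sugar transferase; 1.13 and 1.13), Vash1 (an inhibitor of angiogenesis; 1.13 and 1.09), Lag3 (an immune checkpoint receptor; 1.12 and 1.09), Pxdc1 (1.09 and 1.01) and Pstpip1 (a cytoskeletal adaptor; 0.91 and 1.00). Apart from Pdcd10, the largest falls were those of Shisal1 (-0.99 in hypoxia, -0.99 in normoxia), Ppp1r1b (DARPP-32, a regulator of protein phosphatase 1; -0.96 and -0.97), Ppara (a nuclear receptor that drives fatty acid oxidation; -0.95 and -0.87) and Rbm38 (an RNA-binding protein; -0.87 and -0.78). Ppara held 8.65, 12.8 and 14.9 CPM (lowest, median, highest) in hypoxic knockouts and 25.6, 24.9, 21.9 and 21.4 CPM in hypoxic controls. It held 13.9, 17.2, 9.12 and 12.96 CPM in normoxic knockouts and 25.5, 23.9, 25.8 and 21.8 CPM in normoxic controls. The number of such genes ran from 251 without normoxic knockout 3 to 652 without normoxic knockout 2, and 137 of the 507 were found again with the immediate early level as a covariate.

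**Figure D4:**
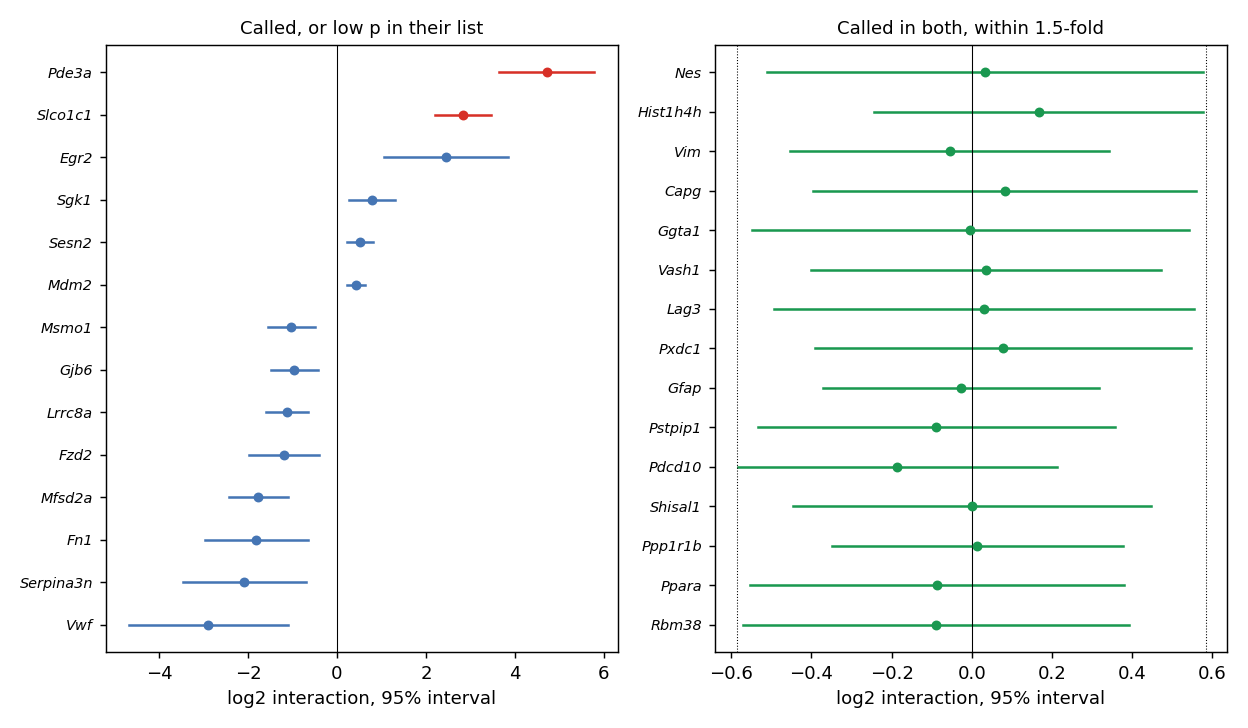
Interaction (log2) of single genes with its 95% interval; on the left, the called genes, genes with a low p in their list and Lrrc8a, which was chosen after its values were seen, and on the right the 15 genes chosen as not dependent on oxygen, with dotted lines at 1.5-fold either way. The intervals of Pde3a and Slco1c1 lie wholly above 2 on the log2 scale, those of Mfsd2a, Fn1, Serpina3n and Vwf lie below 0 without a pass after adjustment, and those on the right lie inside the dotted lines because they were chosen so.

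Several of the largest knockout rises were alike in size at both oxygen levels, but the libraries spread too widely to bound their interaction. Ndufa4l2, a HIF-induced subunit that lowers respiratory chain activity, held 19.5, 26.8 and 44.9 CPM (lowest, median, highest) in hypoxic knockouts and 1.24, 0.491, 3.54 and 0.792 CPM in hypoxic controls. Normoxic knockouts held 17.1, 9.23, 32.6 and 6.18 CPM and normoxic controls 0.720, 0.719, 1.37 and 0.890 CPM, so knockouts and controls did not overlap at either level. Its knockout differences were 4.22 and 4.14, and the interaction of 0.08 had an interval of -1.38 to 1.55. Cxcl10, an interferon-induced chemokine (2.25 in hypoxia, 2.16 in normoxia), Ptgs2, the prostaglandin synthase COX-2 (1.97 and 1.66), and Cx3cl1, the chemokine fractalkine (1.42 and 1.53), passed in both comparisons and had interaction intervals that reached beyond 1.5-fold. The hypoxic call of Cx3cl1 was lost with the immediate early level as a covariate (adjusted p = 0.163).

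Cholesterol synthesis genes were mostly lower in knockouts in hypoxia, and none of their interactions passed after adjustment. All 19 genes of a cholesterol synthesis list had a negative interaction, with a median of -0.45, against 46.6% negative and a median of 0.02 over all genes tested. At an unadjusted p under 0.05, 11 of the 19 were negative, against 6.34% of all genes. In hypoxia 16 of the 19 were lower in knockouts (9.37% of all genes) and none higher, and in normoxia 3 were lower (5.27% of all genes) and none higher. Without hypoxic knockouts 1 to 3 the list had 14 falls in hypoxia and a median interaction of -0.29. It had 10 falls in hypoxia with the immediate early level as a covariate. Over all genes, calls in hypoxia numbered 1696 and 597 in these fits, against 3917 in the main fit.

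Msmo1, the sterol methyl oxidase that removes methyl groups from lanosterol products, had the most negative interaction of the list. It held 65.5, 104 and 147 CPM (lowest, median, highest) in hypoxic knockouts and 219, 249, 261 and 237 CPM in hypoxic controls, which did not overlap. Normoxic knockouts had 163, 189, 180.1 and 178 CPM and normoxic controls 172, 194, 210.2 and 235 CPM, which overlapped. The knockout difference was -1.21 ± 0.17 in hypoxia (adjusted p = 1.19e-04) and -0.19 ± 0.19 in normoxia (adjusted p = 0.56), and the interaction was -1.02 ± 0.26 (unadjusted p = 7.65e-04, adjusted p = 0.249).

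Fdft1, which encodes squalene synthase, the first enzyme committed to sterols, differed at both oxygen levels. It held 67.3, 83.3 and 90.7 CPM (lowest, median, highest) in hypoxic knockouts and 146, 190.2, 159.8 and 151 CPM in hypoxic controls. In normoxia it held 90.3, 108, 88.0 and 82.0 CPM in knockouts and 146, 130.4, 111 and 116 CPM in controls. Knockouts were below controls in each, by -0.997 ± 0.11 and -0.45 ± 0.12, with an interaction of -0.55 ± 0.16 (adjusted p = 0.296); the normoxic call was lost without normoxic knockout 1, 3 or 4 or normoxic control 1 or 2. Hmgcs1, an early enzyme of the pathway named here for its promoter, had an interaction of -0.17. In a search of 17 promoters of 14 genes of the list for TCACNCCAC, a form of the element that SREBP binds, on both strands, 1 held it (5.88%, against 1.24% of all 32851 promoters), and that was Hmgcs1.

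Mfsd2a, the transporter of lysophosphatidylcholine with docosahexaenoic acid, gave the most negative interaction of the lipid lists. It held 19.9, 29.6 and 34.3 CPM (lowest, median, highest) in hypoxic knockouts and 129.9, 139, 145 and 63.5 CPM in hypoxic controls, the lowest control being number 6. Normoxic knockouts had 102, 109, 75.2 and 149 CPM and normoxic controls 107, 109.5, 146 and 161 CPM. Hypoxic knockouts were thus below all other libraries, and the normoxic groups overlapped.

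The knockout difference of Mfsd2a was -2.03 ± 0.21 in hypoxia (adjusted p = 7.56e-06) and -0.27 ± 0.24 in normoxia (adjusted p = 0.5). The interaction was -1.77 ± 0.32 (95% interval -2.43 to -1.10, unadjusted p = 2.43e-05, adjusted p = 0.121), and it passed in 3 of 28 alternatives, namely DESeq2 (adjusted p = 1.66e-04), a replicate block (0.00882) and without hypoxic control 6 (0.00294). Plin4, a coat protein of lipid droplets, held 2.06, 2.64 and 4.39 CPM (lowest, median, highest) in hypoxic knockouts and 18.04, 18.8, 17.5 and 4.56 CPM in hypoxic controls, against 14.4, 11.8, 6.08 and 10.9 CPM in normoxic knockouts and 17.6, 11.0, 22.1 and 21.4 CPM in normoxic controls. Hypoxic control 6 came close to the knockouts here too. Its knockout differences were -2.33 (adjusted p = 1.41e-04) and -0.74 (adjusted p = 0.199), and its interaction -1.59 ± 0.49 (adjusted p = 0.315). Of the 14 genes of fatty acid synthesis and lipid transport, 11 had a negative interaction (46.6% of all genes). In knockouts 5 were lower in hypoxia (9.37% of all genes) and 1 in normoxia, near the 5.27% of all genes, and none was higher. The hypoxic falls numbered 3 to 7 with single libraries left out and 2 with the immediate early level as a covariate. With that covariate 597 genes in all were called in hypoxia, against 3917 in the main fit. Of 13 genes of SREBP and LXR regulation, 5 were lower and 1 higher in knockouts in hypoxia (9.37% and 10.4% of all genes). In normoxia 1 was lower and 1 higher (5.27% and 6.9% of all genes).

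**Figure D5:**
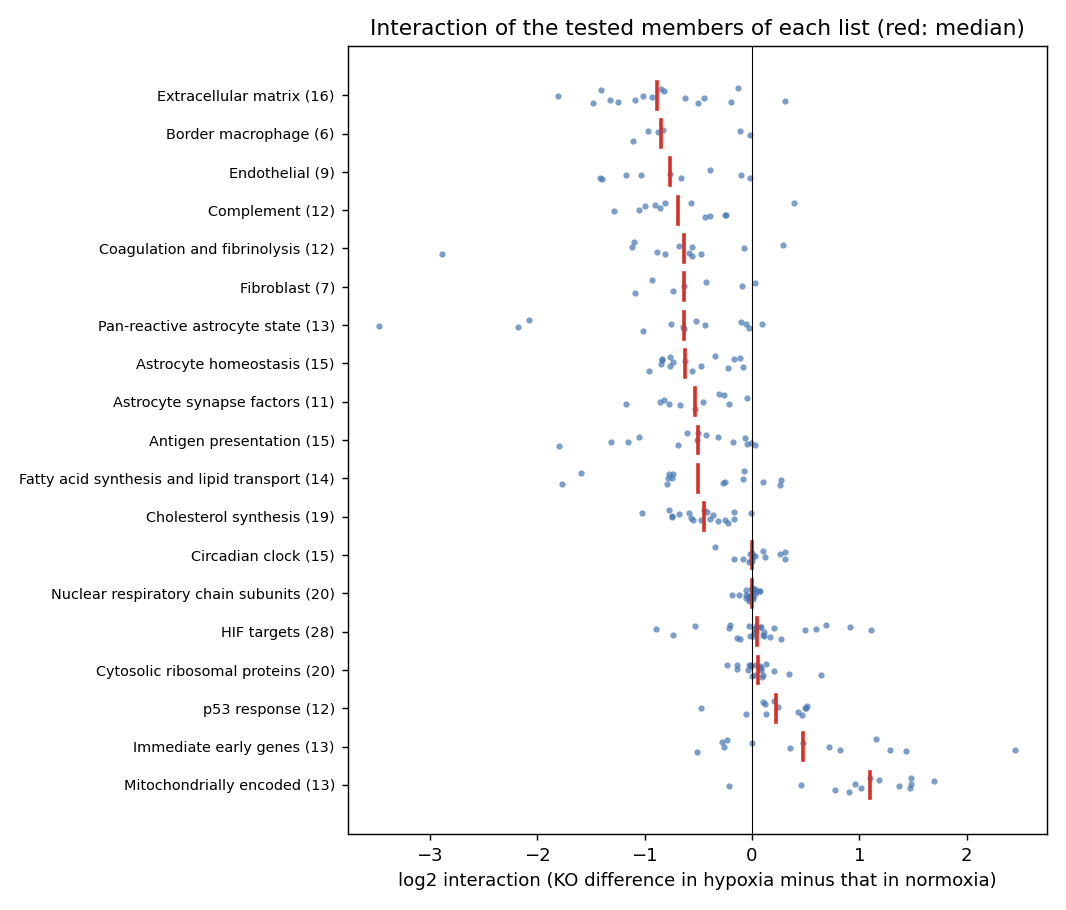
Interaction (log2) of each tested member of 19 gene lists, a point per gene, with the list's median in red and a line at 0. Members of the cholesterol, homeostasis, synapse, matrix, coagulation and vascular lists lie mostly below 0, and those of the circadian and respiratory chain lists lie close to 0.

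Genes for transport in astrocytes had negative interactions too, and none passed after adjustment. All 15 members of a homeostasis list had a negative interaction (median -0.63), 9 were lower in knockouts in hypoxia (9.37% of all genes) and none in normoxia (5.27% of all genes), and none was higher in either. The 11 genes of astrocyte factors that act on synapses were also all negative (median -0.53), with 5 falls in hypoxia and none in normoxia, against the same shares of all genes. Falls in hypoxia numbered 6 and 1 without hypoxic knockouts 1 to 3, with medians of -0.34 and -0.25. With the immediate early level as a covariate there were 1 and 0 falls. Over all genes, calls in hypoxia numbered 1696 and 597 in these fits, against 3917 in the main fit. The summed level of 10 astrocyte markers ran from 27672.9 to 41996.1 CPM in hypoxic knockouts, 36064.3 to 42218.8 in hypoxic controls, 41394.3 to 47297.4 in normoxic knockouts and 36530.5 to 41796.5 in normoxic controls, and its part in these results was not tested. In hypoxic knockouts the low end was libraries 1 to 3, at 27672.9, 27711.4 and 31029.8 CPM, against 35080.6 to 41996.1 CPM in libraries 4 to 7. All 10 astrocyte markers also had a negative interaction (median -0.27). In hypoxia 4 fell and 1 rose (9.37% and 10.4% of all genes), and in normoxia 1 rose (6.9%). The rise in each was Gfap, which alone held 9681 to 13380 CPM of the sum in hypoxic knockouts. Without hypoxic knockouts 1 to 3, 6 of the 10 markers were negative (median -0.02).

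Gjb6, the gap junction protein connexin 30, held 131, 159.9 and 225 CPM (lowest, median, highest) in hypoxic knockouts and 392, 434, 448 and 327 CPM in hypoxic controls. Normoxic knockouts had 329.8, 382, 238 and 393 CPM and normoxic controls 321, 341, 429 and 462 CPM. The hypoxic groups were apart and the normoxic groups overlapped, with knockout differences of -1.17 (adjusted p = 1.62e-04) and -0.21 (adjusted p = 0.512) and an interaction of -0.95 ± 0.26 (adjusted p = 0.256). Slc1a3, the glutamate transporter GLAST, gave -0.52 (adjusted p = 0.0904) and 0.32, neither of which passed. Mertk, a receptor through which astrocytes engulf synapses, gave -1.02 in hypoxia (adjusted p = 0.00193) and -0.17 in normoxia. The hypoxic call of Mertk was lost with the immediate early level as a covariate. Thbs4, a thrombospondin, gave -0.84 (adjusted p = 0.0271) and 0.33, and its hypoxic call was lost without hypoxic knockout 1, 2 or 3 or hypoxic control 3, 4 or 5.

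Fzd2, a frizzled receptor for Wnt ligands, was lower in knockouts at both oxygen levels and by a larger log2 difference in hypoxia. It held 16.0, 25.8 and 44.4 CPM (lowest, median, highest) in hypoxic knockouts and 168, 144, 177 and 135 CPM in hypoxic controls, and 48.3, 74.5, 44.5 and 74.1 CPM in normoxic knockouts and 105, 122, 152 and 159 CPM in normoxic controls. Knockouts and controls did not overlap in either. The differences were -2.35 ± 0.25 (adjusted p = 9.37e-06) and -1.16 ± 0.28 (adjusted p = 0.0147), the normoxic call being lost without normoxic knockout 3 (adjusted p = 0.0568), and the interaction was -1.19 ± 0.37 (adjusted p = 0.315). Over the list of 14 frizzled receptors and Wnt targets the median interaction was -0.25, and 10 members were negative (46.6% of all genes).

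Of 13 genes of the pan-reactive astrocyte state, 6 rose in knockouts in hypoxia (10.4% of all genes) and 11 in normoxia (6.9% of all genes), and none fell; 12 of the 13 interactions were negative, with a median of -0.63. Leaving out normoxic knockout 3 brought the median to -0.25 and the normoxic rises to 8. Gfap and Vim, given above, were among the 6 called in both.

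Serpina3n, a secreted protease inhibitor and marker of strong astrocyte reactivity, whose near copies may share reads, showed a knockout difference of opposite sign at the 2 oxygen levels, though neither passed. It held 48.0, 94.0 and 145 CPM (lowest, median, highest) in hypoxic knockouts and 179, 123, 138 and 186 CPM in hypoxic controls. Normoxic knockouts held 53.8, 42.7, 104 and 188 CPM and normoxic controls 19.2, 89.5, 28.9 and 23.1 CPM. The groups overlapped at both oxygen levels. The knockout differences were -0.80 ± 0.44 (adjusted p = 0.192) and 1.28 ± 0.49 (adjusted p = 0.102), and the interaction was -2.08 ± 0.66 (adjusted p = 0.315). Lcn2, lipocalin-2, had the most negative value of the list (-3.47 ± 1.61, adjusted p = 0.414), which rested on 6.01 CPM in normoxic knockout 4 against 0.136 to 0.949 CPM in normoxic knockouts 1 to 3; its normoxic call was lost without that library.

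A part of the antigen presentation and complement genes was higher in knockouts at each oxygen level. Of 15 antigen presentation genes, 7 rose and 1 fell in hypoxia (10.4% and 9.37% of all genes) and 7 rose in normoxia (6.9% of all genes), 6 of them in both, and 14 interactions were negative (median -0.51). The hypoxic rises numbered 4 to 7 with single libraries left out and 0 with the immediate early level as a covariate. With that covariate 597 genes in all were called in hypoxia, against 3917 in the main fit. H2-Aa, a class II histocompatibility chain, held 0.952, 2.21 and 3.60 CPM (lowest, median, highest) in hypoxic knockouts and 0.571, 0.684, 1.31 and 0.457 CPM in hypoxic controls, against 2.58, 2.49, 6.80 and 3.90 CPM in normoxic knockouts and 0.214, 0.370, 0.412 and 0.612 CPM in normoxic controls. Hypoxic knockout 7 lay below hypoxic control 5, and the normoxic groups did not overlap. Its differences were 1.503 (adjusted p = 0.0129) and 3.30 (adjusted p = 2.94e-04), and its interaction -1.79 ± 0.58 (adjusted p = 0.315); class I gene H2-D1 gave -0.45 and 0.70, neither passing. The hypoxic call of H2-Aa was lost with the immediate early level as a covariate.

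Of 12 complement genes tested, 5 rose and 1 fell in hypoxia (10.4% and 9.37% of all genes) and 9 rose in normoxia (6.9% of all genes), and 11 interactions were negative (median -0.69). The hypoxic rises ranged from 1 to 6 when single libraries were left out, with 2 without hypoxic control 6. They were 0 with the immediate early level as a covariate, where 597 genes in all were called in hypoxia against 3917 in the main fit. Serping1, the C1 inhibitor, had knockout differences of -0.13 in hypoxia and 0.72 in normoxia, the second of which passed (adjusted p = 0.0321) and was lost without normoxic knockout 3 or 4 or normoxic control 1, 2 or 3. The interferon list (16 genes) had a median interaction of 0.07. In hypoxia 2 of its genes rose and 2 fell, near the 10.4% and 9.37% of all genes. In normoxia 3 rose and 1 fell (6.9% and 5.27% of all genes).

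Extracellular matrix genes had the lowest median interaction of the 35 pathway lists in the main fit, -0.89. Of the 16, 15 were negative (46.6% of all genes), 9 of them at an unadjusted p under 0.05 (6.34% of all genes). In hypoxia 3 rose and 3 fell in knockouts (10.4% and 9.37% of all genes), and in normoxia 7 rose (6.9% of all genes) and none fell. With the immediate early level as a covariate none rose and 1 fell in hypoxia. In that fit 597 genes in all were called in hypoxia, against 3917 in the main fit. The normoxic rises ranged from 5 without normoxic knockout 1 to 10. Without hypoxic knockouts 1 to 3 the median was -0.67, above the medians of the mitochondrially encoded (-2.08) and coagulation (-0.72) lists.

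Fn1, which encodes fibronectin, held 16.7, 30.8 and 35.4 CPM (lowest, median, highest) in hypoxic knockouts and 23.96, 19.8, 34.4 and 11.9 CPM in hypoxic controls, which overlapped. It held 172, 45.7, 125 and 53.1 CPM in normoxic knockouts and 8.91, 24.8, 24.5 and 30.9 CPM in normoxic controls, which did not. The knockout differences were 0.34 (adjusted p = 0.544) and 2.15 (adjusted p = 0.0045), and the interaction was -1.81 ± 0.55 (adjusted p = 0.309). Col4a1, a basement membrane collagen chosen after its values were seen, gave 0.61 (adjusted p = 0.103) and 1.86 (adjusted p = 9.14e-04). Lama2, a laminin chain of astrocyte basement membrane, gave -0.58 in hypoxia (adjusted p = 0.0104) and 0.26 in normoxia (adjusted p = 0.319); its hypoxic call was lost without hypoxic knockouts 1 to 3 and with the immediate early level as a covariate.

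Vwf, the von Willebrand factor of endothelium and platelets, had the most negative interaction among the coagulation genes. It held 1.97, 4.67 and 6.67 CPM (lowest, median, highest) in hypoxic knockouts and 1.11, 1.10, 3.96 and 2.13 CPM in hypoxic controls. Normoxic knockouts held 53.5, 5.13, 31.9 and 8.71 CPM and normoxic controls 0.934, 1.73, 0.786 and 3.19 CPM. Normoxic knockouts were above their controls, 1 and 3 far more than 2 and 4, and the hypoxic groups overlapped. Its differences were 1.02 (adjusted p = 0.228) and 3.91 (adjusted p = 0.00211), and its interaction -2.89 ± 0.85 (adjusted p = 0.304).

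Of 12 coagulation and fibrinolysis genes, 2 rose and 2 fell in hypoxia (10.4% and 9.37% of all genes) and 7 rose in normoxia (6.9% of all genes), and 11 interactions were negative (median -0.63). The hypoxic rises numbered 1 to 4 with single libraries left out, and with the immediate early level as a covariate none rose or fell in hypoxia. In that fit 597 genes in all were called in hypoxia, against 3917 in the main fit. Pros1, the anticoagulant protein S, held 9.85, 13.9 and 17.0 CPM (lowest, median, highest) in hypoxic knockouts and 13.7, 14.3, 17.2 and 14.2 CPM in hypoxic controls, and 26.2, 22.1, 35.03 and 35.1 CPM in normoxic knockouts and 12.2, 16.4, 18.9 and 20.8 CPM in normoxic controls. Normoxic knockouts stood above all other libraries. The differences were -0.09 (adjusted p = 0.741) and 0.80 (adjusted p = 0.00979), and the interaction -0.88 ± 0.24 (adjusted p = 0.267).

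Markers of vascular and border cells moved in the same direction as the matrix and coagulation genes. All 9 endothelial, all 8 mural and all 6 border macrophage markers, and 6 of 7 fibroblast markers, had negative interactions (46.6% of all genes), with medians of -0.77, -0.51, -0.85 and -0.63. All 6 choroid plexus markers (median 0.95) and all 7 oligodendrocyte markers (median 0.24) went the other way. No interaction in these lists passed. Choroid plexus markers summed to 175 to 4591 CPM over all libraries. Endothelial markers summed to 18.5 to 31.0 CPM in hypoxic knockouts, 14.9 to 29.3 in hypoxic controls, 20.6 to 55.1 in normoxic knockouts and 11.7 to 28.7 in normoxic controls. Mural markers summed to 62.1 to 89.7 CPM in hypoxic knockouts, 60.4 to 90.2 in hypoxic controls, 99.8 to 126 in normoxic knockouts and 60.3 to 90.7 in normoxic controls. Border macrophage markers summed to 13.2 to 20.3 CPM in hypoxic knockouts, 11.4 to 21.3 in hypoxic controls, 22.96 to 27.96 in normoxic knockouts and 13.3 to 23.5 in normoxic controls. Normoxic knockouts were above all other libraries in mural markers, and the sums were above 0 in every library. The tight junction gene Cldn5, chosen after its values were seen, gave 0.91 in hypoxia and 2.32 in normoxia, and the adhesion gene Esam 1.12 and 2.15; the hypoxic value of Cldn5 did not pass (adjusted p = 0.167), and the hypoxic call of Esam was lost without hypoxic control 4, 5 or 6. The part of these cells in the results for matrix, coagulation, complement and immune genes was not tested.

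Genes of the HIF response showed no common shift. Of 28 targets, 13 rose and 3 fell in hypoxia (10.4% and 9.37% of all genes), and 8 rose and 2 fell in normoxia (6.9% and 5.27% of all genes). The falls were near these shares, 8 genes rose in both, and the median interaction was 0.05. With the immediate early level as a covariate 7 rose in hypoxia, where 597 genes in all were called against 3917 in the main fit. For 6 of the 28, Eno1, Ldha, Mxi1, Pdk1, Pfkl and Pfkp, the knockout difference was called in both and the interval lay within 1.5-fold. Of these 6, Mxi1 was lower in knockouts, the 1 target called lower in both, and the others were higher. Ldha, lactate dehydrogenase A, held 511, 564 and 647 CPM (lowest, median, highest) in hypoxic knockouts and 362, 350.5, 377 and 430.1 CPM in hypoxic controls, and 442, 423, 639.5 and 463 CPM in normoxic knockouts and 315, 336, 323 and 335 CPM in normoxic controls. Knockouts lay above controls at both levels, by 0.60 and 0.59, with an interaction of 0.01.

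Among the HIF targets within 1.5-fold, Pdk1, a kinase that inhibits pyruvate dehydrogenase, gave 0.70 in hypoxia and 0.43 in normoxia, and phosphofructokinase Pfkp 0.74 and 0.69. The other HIF targets named here differed among themselves. P4ha2, a collagen prolyl hydroxylase, held 3.30, 4.05 and 4.11 CPM (lowest, median, highest) in hypoxic knockouts and 7.42, 7.40, 7.71 and 4.08 CPM in hypoxic controls, against 4.91, 4.35, 6.12 and 5.85 CPM in normoxic knockouts and 3.61, 5.06, 5.80 and 5.38 CPM in normoxic controls. Hypoxic control 6 lay with the knockouts. Its knockout differences were -0.80 (adjusted p = 0.00226) and 0.10 (adjusted p = 0.769), and its interaction -0.90 ± 0.24 (adjusted p = 0.256). Slc2a1, the glucose transporter GLUT1 of endothelium and astrocytes, gave -0.57 in hypoxia and 0.17 in normoxia, and its hypoxic call (adjusted p = 0.00983) was lost without hypoxic knockouts 1 to 3; with the immediate early level as a covariate the hypoxic calls of Slc2a1 and P4ha2 were both lost. Vegfa gave 0.24 and 0.19, with an interaction of 0.04 ± 0.42.

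Of 12 target genes of p53, 10 rose in knockouts in hypoxia (10.4% of all genes) and 6 in normoxia (6.9% of all genes), all 6 of them in both, and none fell. The normoxic rises numbered 4 without normoxic knockout 3. The interaction was positive for 10, with a median of 0.23. Mdm2, the ligase that degrades p53, held 50.2, 52.6 and 58.8 CPM (lowest, median, highest) in hypoxic knockouts and 39.1, 50.7, 42.7 and 43.4 CPM in hypoxic controls, and 42.1, 40.4, 44.4 and 46.3 CPM in normoxic knockouts and 48.8, 47.6, 47.8 and 49.3 CPM in normoxic controls. Normoxic knockouts were below their controls and hypoxic knockouts mostly above theirs, with differences of 0.27 (adjusted p = 0.00908) and -0.16 (adjusted p = 0.164) and an interaction of 0.43 ± 0.10 (adjusted p = 0.21). Sesn2, a stress-induced inhibitor of mTORC1, gave 0.66 (adjusted p = 1.84e-04) and 0.14 (adjusted p = 0.406), with an interaction of 0.52 ± 0.14 (adjusted p = 0.267). The nuclease Aen and the cyclin Ccng1 rose in both with intervals within 1.5-fold, and the normoxic call of Aen was lost without normoxic knockout 3.

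The circadian clock and the respiratory chain gave narrow values near 0. All 15 circadian genes had interaction intervals within 2-fold (64.7% of all genes), with a median of 0.00; 7 fell in hypoxia (9.37% of all genes) and 4 in normoxia (5.27% of all genes), and none rose. All 20 nuclear-encoded respiratory chain subunits had intervals within 1.5-fold (40.5% of all genes), with a median of 0.00. In knockouts 5 of the 20 fell in hypoxia (9.37% of all genes) and 1 in normoxia, near the 5.27% of all genes, and none rose. Their hypoxic falls numbered 1 to 5 with single libraries left out. The hypoxic falls of both lists dropped to 0 with the immediate early level as a covariate. In that fit 597 genes in all were called in hypoxia, against 3917 in the main fit.

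Immediate early genes, which respond to neuronal and injury signals within minutes, had a median interaction of 0.48. Egr2 held 5.54, 8.09 and 12.8 CPM (lowest, median, highest) in hypoxic knockouts and 2.87, 1.14, 1.33 and 10.2 CPM in hypoxic controls, and 1.19, 1.52, 2.21 and 1.82 CPM in normoxic knockouts and 4.47, 3.04, 4.49 and 5.10 CPM in normoxic controls. Normoxic knockouts were below their controls, and hypoxic knockouts above 3 of theirs, control 6 being the exception. The differences were 1.10 (adjusted p = 0.0903) and -1.35 (adjusted p = 0.0902), and the interaction 2.45 ± 0.66 (adjusted p = 0.279). Egr1 gave 1.49 in hypoxia (adjusted p = 0.00643) and 0.06 in normoxia, its hypoxic call being lost without hypoxic knockouts 1 to 3. Without hypoxic control 6 the list's median was 1.03 and 7 of its 13 members rose in hypoxia, against 2 with it (10.4% of all genes). The glucocorticoid response list (12 genes) had a median interaction of -0.38, and 0.00 with the immediate early level as a covariate. Its member Sgk1, a kinase that regulates ion channels, gave 0.08 in hypoxia and -0.71 in normoxia (adjusted p = 0.0188, lost without normoxic knockout 3), with an interaction of 0.79 ± 0.24.

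Mitochondrially encoded transcripts followed the hypoxic knockouts that stood apart. Of 13, 10 rose in hypoxia (10.4% of all genes) and none in normoxia (6.9% of all genes), with a median interaction of 1.10. Without hypoxic knockouts 1 to 3, 11 of them passed the expression filter. Of these 11 none rose in hypoxia, 10 rose in normoxia and the median was -2.08. The hypoxic count was also 0 without hypoxic control 6 and with the Y-linked or immediate early level as a covariate. mt-Nd5 held 22.2, 28.5 and 39.5 CPM in hypoxic knockouts 1 to 3 and 1.70 to 3.05 CPM in hypoxic knockouts 4 to 7. Among hypoxic knockouts, these 3 libraries also held the most of a red cell and a neuronal transcript. Hbb-bs, the adult beta globin, held 29.8, 50.5 and 53.2 CPM in them and 8.44 to 26.4 CPM in hypoxic knockouts 4 to 7. Camk2a, a kinase of excitatory neurons, held 507, 644 and 529 CPM against 187 to 383 CPM. Normoxic knockouts 1 and 3 held 848 and 542 CPM of Camk2a. By the mean log2 level of erythroid markers, hypoxic knockout 6 (2.32) lay above hypoxic knockout 1 (2.24).

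Knockout differences of opposite sign at the 2 oxygen levels passed both tests at 5 genes, and apart from Slco1c1 they were chosen after their values were seen. Ppp1r10, a nuclear regulator of protein phosphatase 1, held 55.4, 63.2 and 68.6 CPM (lowest, median, highest) in hypoxic knockouts and 82.7, 90.4, 77.5 and 72.0 CPM in hypoxic controls, and 111, 89.9, 81.8 and 89.3 CPM in normoxic knockouts and 77.2, 72.2, 70.0 and 63.7 CPM in normoxic controls. Knockouts were below controls in hypoxia and above them in normoxia without overlap. The differences were -0.37 (adjusted p = 0.00836) and 0.39 (adjusted p = 0.0198), and the interaction was -0.76 ± 0.14 (unadjusted p = 2.06e-05, adjusted p = 0.121). The normoxic call was lost without normoxic knockout 1 or normoxic control 3 or 4, and the hypoxic call without hypoxic knockouts 1 to 3. The others were Crim1, a membrane protein that binds BMPs (-0.27 in hypoxia, 0.32 in normoxia), the growth factor Fgf2 (-0.25 and 0.28) and Ankef1 (0.71 and -0.80). Each of these 3 lost a call in hypoxia and in normoxia when single libraries were left out, among them hypoxic control 3 and normoxic knockout 1.

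Lrrc8a and Trib1 were, with Mfsd2a, the genes below the threshold that passed under each of the 3 alternatives with more calls, and were chosen for that. Lrrc8a, the essential subunit of volume-regulated anion channels, held 19.4, 20.7 and 28.9 CPM (lowest, median, highest) in hypoxic knockouts and 42.7, 50.9, 50.5 and 33.0 CPM in hypoxic controls, and 56.3, 45.7, 37.3 and 55.6 CPM in normoxic knockouts and 38.4, 35.7, 48.5 and 48.7 CPM in normoxic controls. Hypoxic knockouts lay below all other libraries, and the normoxic groups overlapped. The differences were -0.94 (adjusted p = 3.87e-04) and 0.19 (adjusted p = 0.511), and the interaction was -1.12 ± 0.23 (adjusted p = 0.195). Trib1, a pseudokinase that directs protein degradation, gave -0.88 (adjusted p = 4.33e-05) and -0.09 (adjusted p = 0.695), with an interaction of -0.79 ± 0.17 (adjusted p = 0.21). Dio2, the deiodinase by which astrocytes activate thyroxine, gave -1.19 in hypoxia (adjusted p = 4.42e-06) and -0.46 in normoxia (adjusted p = 0.0306), with an interaction of -0.73 ± 0.18 (adjusted p = 0.223); it was also chosen after its values were seen, and its normoxic call was lost without normoxic knockout 1 or 3 or normoxic control 1, 2 or 3.

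A call in hypoxia without a call in normoxia was common and did not by itself show a dependence on oxygen. There were 2698 such genes (13.6%), and their rises had median differences of 0.70 in hypoxia and 0.31 in normoxia, and their falls -0.48 and -0.18. The reverse held for 1196 genes (6.02%), with medians of 0.31 and 0.85 for rises and -0.14 and -0.38 for falls. These sets were chosen on a component of the interaction, and only Slco1c1 and Pde3a passed the test of the difference itself. With 19 libraries the median SE of the interaction was 0.168 for genes whose log2 CPM averaged 1 or more, and the median half-width of the unadjusted 95% interval 0.351. A pass after adjustment over all genes needed a larger interaction relative to its error than one that clears this interval.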

How the data were processed

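The deposited table of whole-number read counts per Ensembl gene was used, without rescaling of the deposited values. The submitters' processing notes name HISAT2, edgeR and the build GRCm39, and the labels name a stranded mRNA library kit; the tool by which the authors counted reads per gene is not stated there. Of counts from 2 to 21, 65.9% were even, so a count may not stand for a single fragment, which was not tested. A second deposited table, in RPKM, was not used. Hypoxic controls 1 and 2 were not analysed here. The labels do not say whether replicates are separate animals, so the spread behind each p-value may be technical.

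Counts were fitted in R 4.3.3 with edgeR 4.0.16 (quasi-likelihood, robust, TMM scaling, edgeR's expression filter, 1 term for each of 4 groups), which left 19854 of 55416 genes, and p-values were adjusted over all of them by the Benjamini-Hochberg method with a threshold of 0.05. Intervals of 95% are Wald intervals from the same fit. CPM use TMM-scaled library sizes. The code was tested on simulated data.

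Named genes were the called interactions, the 10 largest rises and 5 largest falls that did not depend on oxygen, up to 4 called or otherwise up to 2 members of each list, and genes of the model; others are said to be chosen later, and 1 gene under this rule is not reported here. Members and lists were chosen with earlier results of these data known. The alternatives were RLE scaling, a filter of 1 CPM in 4 libraries, no filter, DESeq2 1.42.0, limma 3.58.1 voom with quality weights, a replicate block, leaving out libraries, the Y-linked level as a covariate and, added after seeing the data, the immediate early level. No replicates of a group were closer than sampling noise. Numbers of replicates went with correlated deviations in all 4 pairs of hypoxic knockouts and hypoxic controls (0.224 to 0.467) but not in every pair of the other groups, so the interaction is given without the block and its count also with it.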

Additional observations from a re-analysis of the deposited data

Results flagged for a closer look

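The knockout difference differed between the oxygen levels, by the test of the interaction itself, for Slco1c1 (2.83) and Pde3a (4.71, both log2).

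Within groups, the highest or lowest library lay far from the rest in 26 of 340 gene and group combinations, and chance gives about 1 in 20. Hypoxic control 6 gave 1.27 CPM for Pde3a, 303.9 for Fos, 4.56 for Plin4, 4.08 for P4ha2, 1.79 for Cd163 and 43 for Crim1. It was the low library for each but Fos. Hypoxic control 5 was the high library for Serping1 (31.6 CPM), Lama2 (12.5) and Pros1 (17.2).

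Normoxic knockout 3 was high for Gfap (13651.0 CPM), Capg (27.4) and Pdk1 (72), and low for Mertk (90.2). Among other normoxic knockouts, number 2 was low for Vash1 (36.2 CPM), number 1 high for Cd163 (5.74) and number 4 high for Lcn2 (6.01).

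Hypoxic knockout 3 was high for Vim (749.7 CPM), Ndufa4l2 (44.9) and Lcn2 (1.47), hypoxic knockout 5 high for Mdm2 (58.8) and Mrc1 (6.28), and hypoxic knockout 1 low for Crim1 (30.6).

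In normoxic controls, number 2 was high for Fos (95.4 CPM) and Serpina3n (89.5), number 1 low for Hist1h4h (2.08), and number 4 high for Esam (0.686).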

How the results depend on the processing

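The interaction count of 2 was 108 with DESeq2, 9 with the replicate block and 2 to 23 with single libraries left out (23 without hypoxic control 6); Slco1c1 and Pde3a were called in all 28 alternatives. Of 2378 combinations of a gene and an alternative, 2353 kept their side of the threshold and direction where called, 25 became called and none was lost or reversed. Most were genes called in neither fit, of which 150 changed sign, and only Slco1c1 and Pde3a had a call to lose. Mfsd2a, Lrrc8a and Trib1 were called with DESeq2, with the block and without hypoxic control 6; Msmo1 was called with DESeq2 and with the block. The block also gained Lhfp, Nol8 and Por. Same-numbered libraries deviated together in all 4 pairs of hypoxic knockouts and controls (0.224 to 0.467), while over the other group pairs the correlation ran from -0.429 to 0.358, and the labels do not say what a number marks.

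The knockout count in hypoxia was 2143 to 4744 with single libraries left out, 1696 without hypoxic knockouts 1 to 3 and 597 with the immediate early level as a covariate; in normoxia it was 1122 to 3149 (3149 without normoxic knockout 2). Genes not dependent on oxygen numbered 251 to 652, 779 with voom and 159 with the immediate early level. The oxygen count in knockouts was 1480 to 2715, 1197 with voom, 1394 without hypoxic knockouts 1 to 3 and 568 with the immediate early level; in controls it was 3 to 39, 140 with DESeq2, 400 with voom and 37 without hypoxic knockouts 1 to 3. The cause was not tested, apart from the fewer libraries where some were left out.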
